A study of Mus musculus with 18 samples.

Results

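The 10 genes described here encode histone lysine demethylases of the JmjC family: Kdm2a, Kdm2b, Kdm3a, Kdm3b, Kdm4a, Kdm4b, Kdm4c, Kdm5a, Kdm5b and Kdm6b. They were taken by gene symbol from a table of 27131 rows, and all 10 had a row and passed the filter on low values (a mean of at least 1 FPKM). The deposited unit, FPKM, divides a gene's fragment number by its transcript length and by the size of the library. Polyadenylated RNA was sequenced from the colon of untreated C57BL/6 mice in 2 groups of 9 libraries. The WT group carried the Hif2a +/+ genotype. The HIF2 group carried an altered Hif2a allele, written LFL in the sample labels and LSL in the design text, and the labels call these mice overexpressers of HIF2 in the colon. How the allele is built, which promoter or cell type drives it, and the mice's age and sex were all not given in the sources used here. No label ties a library to its own animal, and p-values therefore describe spread among libraries, which may be technical.

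JmjC demethylases remove methyl groups from lysines of histone tails with the help of iron, 2-oxoglutarate and molecular oxygen, so their activity can fall when oxygen is short. Each subfamily prefers certain marks: KDM2 enzymes act on H3K36, KDM3 enzymes on H3K9, KDM4 enzymes on H3K9 and H3K36, KDM5 enzymes on H3K4 and KDM6 enzymes on H3K27. Several of their genes, KDM3A among them, are known targets of hypoxia-inducible factors (HIFs), which bind a short core sequence, ACGTG or GCGTG, in regulatory DNA. HIF-2α, the factor altered here, is encoded by Epas1.

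The core sequence is shown first because it is the letters that HIF-2α is known to bind. RefSeq start sites (GRCm38.p6, the assembly that mm10 denotes) were matched by symbol for 5 of the 10 genes, Kdm2b, Kdm3a, Kdm4a, Kdm4c and Kdm5b, with 11 start sites in all. Some of these windows overlap each other. Kdm2a, Kdm3b, Kdm4b, Kdm5a and Kdm6b had no entry. Windows of 300 bases, from 250 before to 50 after each start, were searched for ACGTG and GCGTG on both strands. ACGTG on both strands can overlap within CACGTG, which then counts as 2 matches. At least 1 match was present in 7 of the 11 windows and in 4 of the 5 genes, against 43.8% of all 32851 windows of this length and 46.7% of all 27025 genes. These 5 genes have more windows per gene than the whole set, and so more chances of a match, which limits the comparison by gene. The sequences below run 5′ to 3′ on the strand of the gene, with the core in capitals.
Kdm3a, chr6:71632928-71632956, minus strand: ccgggaggctgtGCGTGtcttgtgagaga
Kdm5b, chr1:134559937-134559965, plus strand: ccaaaatatatgACGTGattgatggattg
Kdm5b, chr1:134560147-134560175, plus strand: cggaggagcactGCGTGgggtagcggcaa
Kdm4c, chr4:74251783-74251811, plus strand: gtttagagacccACGTGacccagagagcg
Kdm4c, chr4:74251815-74251843, plus strand: ggcccagcggtcACGTGggggcgcgtgcg
Kdm2b, chr5:122988617-122988645, minus strand: caacgccgaaagGCGTGgaagggactgag
The Kdm3a stretch is shown because that gene rose, and the others because they belong to genes that did not pass the test. In Kdm3a the single match began 27 bases before 1 of its 3 RefSeq starts, at position 71632917, and the windows of the other two starts held none. In Kdm5b matches began 229 and 19 bases before the start. The Kdm4c stretches both hold CACGTG, and their capitals began 84 and 52 bases before a start at 74251879, whose window held 6 matches in all, while the window of the other Kdm4c start held none. Each of the 4 Kdm2b windows held a match, of which 1 is shown, 126 bases before its start. Kdm4a had no match in its window. A match of these letters is a description of the window and not a measured binding site.

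Facts of the whole series that touch these results were as follows. FPKM sums lay between 686539 and 937505 per library, with absolute depth not given in the sources used here. Epas1, the altered gene itself, ranged from 13.8 to 23.0 FPKM in WT with a median of 18.5, and from 16.6 to 35.9 with a median of 20.4 in HIF2, a log2 difference of 0.24 (SE 0.14) that did not pass the test (limma adjusted p = 0.246). In HIF2 replicates 6 to 8 set against the 8 WT libraries other than replicate 3, Epas1 was 0.47 higher (limma adjusted p = 0.0415). Whether its row counts RNA of the altered allele was not tested. Markers of colon epithelium, 13 of 14 matched, were abundant in all libraries, with a summed level of 14385 to 20765 FPKM in WT and 9469 to 17827 in HIF2. Of the 13 epithelial genes tested, 0 were higher and 7 lower in HIF2 by limma (Car4, Fabp2, Cdx2, Slc26a3, Krt20, Vil1 and Cdh1, with a median log2 difference of -0.40 and 9 at an unadjusted p under 0.05 over the 13). Of 16 smooth muscle genes, 14 were higher and 1 lower in HIF2. Their summed level was 41.7 to 1315 FPKM in WT, 1648 to 3928 in HIF2 replicates 0 to 5 and 84.6 to 212 in HIF2 replicates 6 to 8. The fibroblast markers, 10 of 10 higher, moved alike, at 813 to 938 FPKM in HIF2 replicates 0 to 5 and 121 to 255 in replicates 6 to 8, against 35.6 to 243 in WT. Of the endothelial markers 9 of 9 were higher in HIF2, and of the macrophage markers 8 of 9. The endothelial sum was 39.1 to 122 FPKM in HIF2 replicates 0 to 5. It was 19.7 to 25.3 in replicates 6 to 8, which overlapped WT at up to 23.5. The macrophage sum was 71.0 to 122 FPKM in HIF2 replicates 0 to 5 and 31.8 to 64.9 in replicates 6 to 8, against up to 49.9 in WT. For comparison with these marker counts, limma called 11.0% of all tested genes higher and 11.1% lower in HIF2. Y-linked RNA was present in WT replicates 0 to 4 and HIF2 replicates 0, 1, 2, 4 and 5, and near 0 in the others, so HIF2 replicates 6 to 8 all lacked it.

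Between HIF2 and WT, 1 of the 10 demethylase genes, Kdm3a, rose and 1, Kdm2a, fell (limma on log2(FPKM + 1), Benjamini-Hochberg adjusted p under 0.05 over 13976 genes). Over all tested genes 11.0% were higher and 11.1% lower, so the share of members called in each direction was near the background. The median log2 difference of the 10 genes was -0.02, and over all tested genes it was also -0.02. In bulk tissue, fewer cells of a type and less RNA per cell cannot be told apart.

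**Figure D1:**
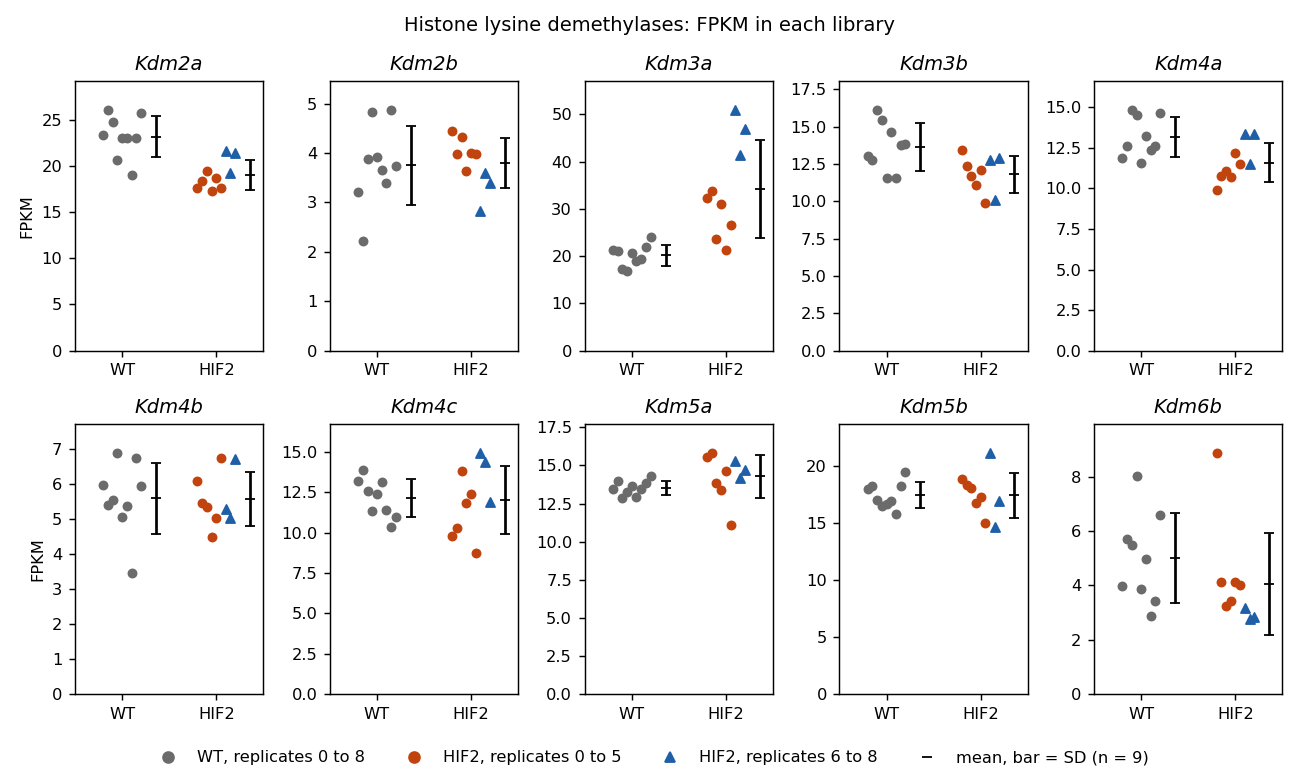
FPKM of each demethylase gene (vertical axes, each from 0) in 9 WT and 9 HIF2 libraries, 1 point per library, with group mean and SD. For Kdm3a 7 of 9 HIF2 libraries lie above the WT range, with replicates 6 to 8 at 41.5 to 51.0 FPKM, and for Kdm5a 5 of 9 do.

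Kdm3a encodes an H3K9 demethylase, also known as JMJD1A, that acts in metabolic gene control and in sperm development. It lies on the minus strand of chromosome 6 (71588972 to 71632990, GENCODE M21 on GRCm38), and no other annotated gene overlaps it. In WT its lowest, median and highest levels were 16.8, 20.7 and 24.0 FPKM. In HIF2 they were 21.3, 32.3 and 51.0 FPKM. All 9 HIF2 libraries lay above the WT median and 7 lay above the WT maximum, while replicates 2 and 4 stayed inside the WT range at 23.5 and 21.3 FPKM. The means were 20.2 ± 2.28 FPKM for WT and 34.2 ± 10.3 for HIF2 (SD, n = 9 libraries), a ratio of 1.70. On the log2 scale the difference was 0.69 (SE 0.14, 95% interval 0.39 to 0.99, limma adjusted p = 0.00231). The size of this difference exceeded that of 86.4% of all tested genes.

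The HIF2 libraries differed among themselves in Kdm3a more than the WT libraries did. The coefficient of variation was 30.0% in HIF2 and 11.3% in WT. HIF2 replicates 6, 7 and 8, which had little smooth muscle RNA, were highest at 51.0, 41.5 and 46.9 FPKM. HIF2 replicates 0, 1, 3 and 5 lay at 32.3, 33.8, 31.1 and 26.6 FPKM, all above every WT library. Replicates 2 and 4 were also the libraries in which the HIF target Egln3, a prolyl hydroxylase gene, stayed at 21.8 and 16.7 FPKM, inside its WT range of 11.4 to 22.2, whereas it was 225 to 549 FPKM in the other 7. Replicate 2 was not inside the WT range for every gene that rose. Hif3a was 2.62 FPKM there, above its WT maximum of 2.09, and 1.73 FPKM in replicate 4.

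The Kdm3a difference was present in both sets of HIF2 libraries that were split by smooth muscle RNA. In HIF2 replicates 0 to 5 against 9 WT libraries it was 0.45 (limma adjusted p = 0.00546). Against the same 8 WT libraries as above, HIF2 replicates 6 to 8 gave 1.13 (limma adjusted p = 1.43e-05). With the mean of the smooth muscle genes as a covariate it was 1.05 (limma adjusted p = 0.000188). No WT library, at up to 1315 FPKM of smooth muscle RNA, reached the 1648 to 3928 FPKM of HIF2 replicates 0 to 5. That set was therefore not compared with WT libraries of its own level, and fits with the covariate extrapolate across this gap. The split of the HIF2 libraries is also not balanced for Y-linked RNA. Among libraries without Y-linked RNA, Kdm3a was 19.1 to 24.0 FPKM in 4 WT and 31.1 to 51.0 in 4 HIF2 (difference 0.96, limma adjusted p = 0.0122). These did not overlap, as in 5.99% of all tested genes for this set and direction. Among libraries with Y-linked RNA it was 16.8 to 21.330 FPKM in 5 WT and 21.333 to 33.8 in 5 HIF2, a difference of 0.47 that did not pass (limma adjusted p = 0.059). These groups did not overlap either, by a margin under 0.01 FPKM, as in 7.44% of all tested genes.

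**Figure D2:**
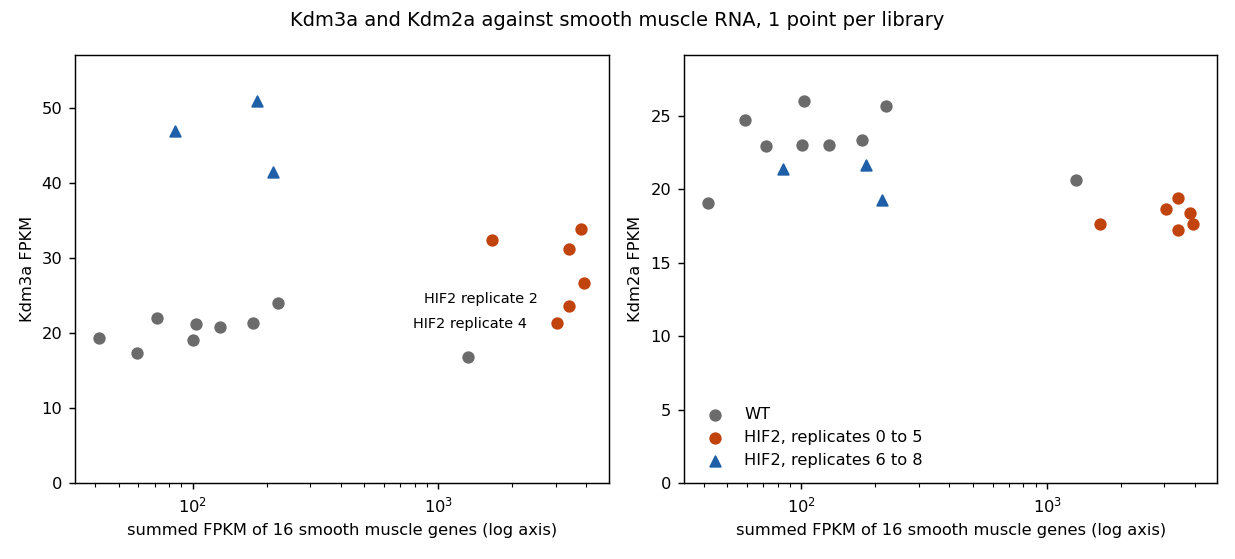
Kdm3a and Kdm2a (FPKM, vertical axes from 0) against the summed FPKM of 16 smooth muscle genes (log axis), 1 point per library. The 3 HIF2 libraries with 84.6 to 212 FPKM of smooth muscle RNA hold the highest Kdm3a, while Kdm2a in the libraries with the most smooth muscle RNA lies at 17.3 to 19.4 FPKM.

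Kdm3b, the paralogue of Kdm3a and likewise an H3K9 demethylase (chromosome 18, 34777047 to 34838660, plus strand), did not pass the test. It was 11.5, 13.8 and 16.1 FPKM (lowest, median, highest) in WT and 9.91, 12.1 and 13.4 FPKM in HIF2. All 9 HIF2 libraries were below the WT median and 3 were below the WT minimum, but the groups overlapped. The log2 difference was -0.19 (SE 0.08, 95% interval -0.35 to -0.03) and missed the threshold over all genes (limma adjusted p = 0.0813). Without WT replicate 6 it was -0.22 and passed (limma adjusted p = 0.0492). The ratio of Kdm3a to Kdm3b within a library, which does not depend on how libraries are scaled, was 1.08 to 1.80 in WT. In HIF2 it was 1.77 to 4.13, above the WT maximum in 8 of 9 libraries, and it was 3.63 to 4.13 in replicates 6 to 8.

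Kdm2a fell. It encodes a JmjC enzyme with a CXXC zinc finger that binds unmethylated CpG DNA and acts on H3K36 at CpG islands (chromosome 19, 4314419 to 4398285, minus strand). Its WT levels were 19.0, 23.0 and 26.0 FPKM (lowest, median, highest) and its HIF2 levels 17.3, 18.7 and 21.6 FPKM. All 9 HIF2 libraries lay below the WT median and 5 below the WT minimum, which was WT replicate 6. The means of 23.2 ± 2.25 FPKM for WT and 19.0 ± 1.60 for HIF2 (SD, n = 9 libraries) gave a log2 difference of -0.27 (SE 0.07, 95% interval -0.41 to -0.13, limma adjusted p = 0.00755).

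Kdm2a tended to be lower in the HIF2 libraries rich in smooth muscle RNA than in the others, with overlap. Within HIF2 replicates 0 to 5 it did not follow smooth muscle RNA. Replicate 0, with the least of that set at 1648 FPKM, held 17.6 FPKM of Kdm2a, and replicate 2, with 3396 FPKM, held 19.4. HIF2 replicates 0 to 5 held 17.3 to 19.4 FPKM and replicates 6 to 8 held 19.3 to 21.6 FPKM. WT replicate 3, which had 1315 FPKM of smooth muscle RNA, was at 20.6 FPKM, the second lowest of the WT libraries, but the lowest, replicate 6, had the least smooth muscle RNA. With the smooth muscle covariate the difference was -0.17 (limma adjusted p = 0.159). For HIF2 replicates 6 to 8 it was -0.165 (limma adjusted p = 0.22), and the call was lost in both. It was also lost among the 8 libraries without Y-linked RNA (-0.18, limma adjusted p = 0.396).

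Kdm2b, its paralogue, which links a variant Polycomb complex to CpG islands (chromosome 5, 122870665 to 122989823, minus strand), was the least abundant member. It ranged from 2.22 to 4.87 FPKM in WT and from 2.82 to 4.44 in HIF2, with all 9 HIF2 libraries inside the WT range. The log2 difference was 0.03 (95% interval -0.19 to 0.25, limma adjusted p = 0.89), and its sign changed with the scaling. In GENCODE 4 other genes overlap Kdm2b, 2 of them on the other strand, and the kit used does not mark strand, so its reads cannot be told apart from theirs where they overlap. By the same annotation 1 or 2 genes on the other strand overlap each of Kdm3b, Kdm4a, Kdm4c, Kdm5a and Kdm6b.

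The KDM4 genes encode demethylases of trimethylated H3K9 and H3K36, and none of the 3 passed the test. Kdm4a (chromosome 4, 118136957 to 118180043, minus strand) was 11.6, 12.6 and 14.8 FPKM (lowest, median, highest) in WT and 9.92, 11.5 and 13.4 in HIF2, where 6 of 9 libraries were below the WT minimum. Its log2 difference was -0.17 (95% interval -0.31 to -0.02, limma adjusted p = 0.0872). Without HIF2 replicate 8 it was -0.19 and passed (limma adjusted p = 0.0489). The difference was -0.23 for HIF2 replicates 0 to 5, where it passed (limma adjusted p = 0.0215), but -0.02 for replicates 6 to 8 (limma adjusted p = 0.887). With the smooth muscle covariate it was -0.11 (limma adjusted p = 0.438). Kdm4a was 9.92 to 12.2 FPKM in the HIF2 libraries rich in smooth muscle RNA and 11.5 to 13.4 in the other 3.

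Kdm4b and Kdm4c, both often described as induced by low oxygen, gave differences near 0. Kdm4b (chromosome 17, 56326062 to 56402870, plus strand) was 3.46 to 6.88 FPKM in WT and 4.48 to 6.74 in HIF2, with all 9 HIF2 libraries inside the WT range (difference 0.00, 95% interval -0.21 to 0.21, limma adjusted p = 0.988). Kdm4c (chromosome 4, 74242497 to 74405860, plus strand) was 10.4 to 13.9 FPKM in WT and 8.77 to 14.9 in HIF2. Its HIF2 libraries spread to both sides of the WT range, with 3 below and 2 above, and the difference was -0.03 (95% interval -0.22 to 0.17, limma adjusted p = 0.887). The 2 Kdm4c libraries above the range were HIF2 replicates 6 and 7. The signs of both differences changed with the scaling. Kdm4c is the gene with the CACGTG stretches printed above. An interval of this width leaves room for a rise of Kdm4b of up to 0.21 on the log2 scale and of Kdm4c of up to 0.17.

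The KDM5 genes encode demethylases of H3K4 and act as repressors at promoters. Kdm5a (chromosome 6, 120364124 to 120444574, plus strand) was the steadiest member in WT, at 12.9 to 14.3 FPKM with a coefficient of variation of 3.56%. In HIF2 it was 11.1 to 15.8 FPKM, and 5 of the 9 libraries were above the WT maximum and 1, replicate 5, below the minimum. The difference was 0.07 (95% interval -0.06 to 0.20, limma adjusted p = 0.48). Kdm5b (chromosome 1, 134560171 to 134635285, plus strand) was 15.8 to 19.5 FPKM in WT and 14.6 to 21.2 in HIF2, with equal means of 17.5 FPKM and a difference of -0.00 (95% interval -0.15 to 0.14, limma adjusted p = 0.972). For both genes the HIF2 libraries spread more widely than the WT libraries, and the sign for Kdm5b, whose promoter window held both forms of the HIF core, changed with the scaling.

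Kdm6b, also known as JMJD3 (chromosome 11, 69398508 to 69413675, minus strand), removes H3K27 methylation and is induced in activated macrophages. It was 2.88, 4.97 and 8.04 FPKM (lowest, median, highest) in WT and 2.74, 3.42 and 8.87 in HIF2. HIF2 replicate 0 stood apart at 8.87 FPKM, and the other HIF2 libraries lay between 2.74 and 4.13. Across the group 8 of 9 HIF2 libraries were below the WT median, and the difference was -0.26 (95% interval -0.65 to 0.13, limma adjusted p = 0.354). Without HIF2 replicate 0 it was -0.39 and still did not pass (limma adjusted p = 0.0687). In that library the neutrophil markers, 11 of 12 matched, summed to 832 FPKM, against at most 12.2 in any other HIF2 library and at most 4.12 in WT. Most of that sum was S100a8 and S100a9, at 421 and 333 FPKM, and 0 of the 3 tested markers passed between the groups by limma. Retnlg and Mmp8 were 54.8 and 11.1 FPKM in HIF2 replicate 0, and 0 in all WT libraries. Ltf, Cxcr2, Csf3r, Camp and Mmp9 also had their highest HIF2 value in replicate 0, at 1.68 to 3.44 FPKM. Mpo and Elane, made at early stages of neutrophil development, were listed at 0 in all 18 libraries. Whether neutrophils were present, and their part in the Kdm6b value, was not tested. WT replicate 3, with the most smooth muscle RNA of its group, held the highest WT value of Kdm6b. HIF2 replicates 1 to 5, with 3046 to 3928 FPKM of smooth muscle RNA, held 3.24 to 4.13 FPKM of Kdm6b. With the smooth muscle covariate the Kdm6b difference was -0.60 and did not pass (limma adjusted p = 0.0677).

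**Figure D3:**
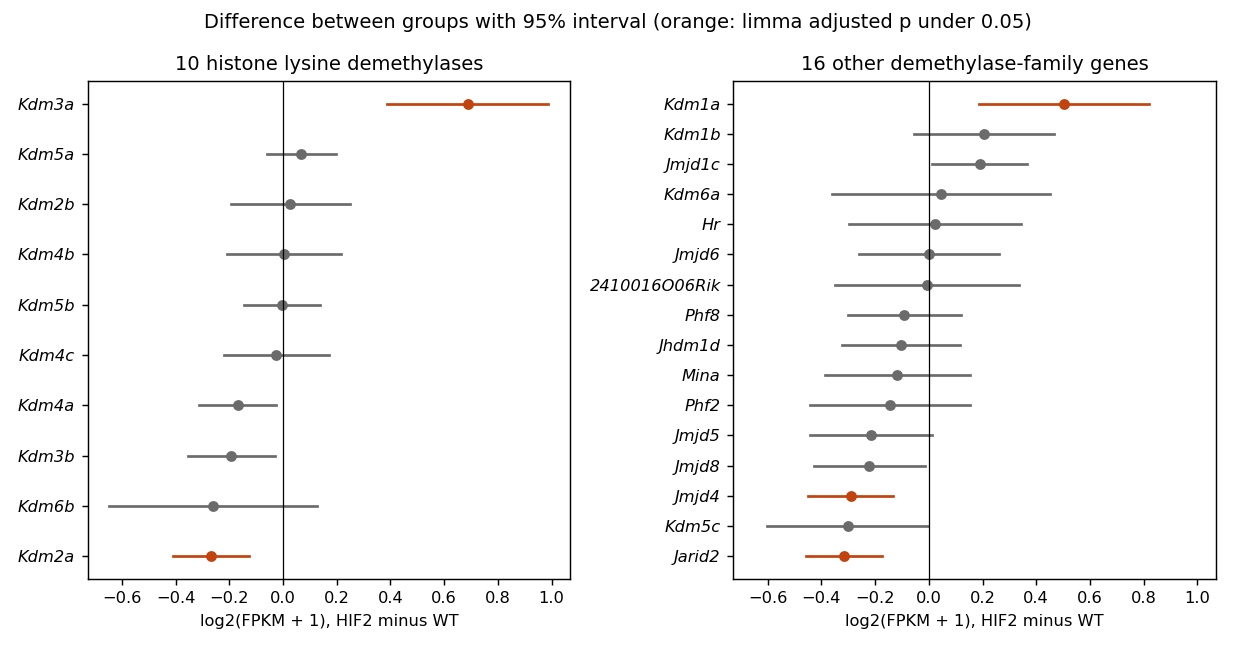
Log2 difference in FPKM + 1, HIF2 minus WT, with its 95% interval (horizontal axis), for the 10 demethylase genes (left) and the other tested genes of the family except Kdm5d and Uty (right). Only Kdm3a and Kdm2a on the left, and Kdm1a, Jarid2 and Jmjd4 on the right, are drawn in the colour of an adjusted p under 0.05.

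Because FPKM is scaled by length, the levels of the genes can be ordered. In WT the order of the means was Kdm2a at 23.2, Kdm3a at 20.2 and Kdm5b at 17.5 FPKM, then a group of Kdm3b, Kdm5a, Kdm4a and Kdm4c between 12.1 and 13.6 FPKM. Neighbours within that group differed by less than the SD of the more variable of them, while the 3 highest genes differed by more. Kdm4b, Kdm6b and Kdm2b formed the low end at 5.60, 4.99 and 3.75 FPKM, again with neighbours closer than that SD. In HIF2 the order of the means was Kdm3a at 34.2, Kdm2a at 19.0, Kdm5b at 17.5 and Kdm5a at 14.3 FPKM. Then came Kdm4c, Kdm3b at 11.8 and Kdm4a at 11.6 FPKM, and Kdm4b, Kdm6b and Kdm2b at 5.57, 4.06 and 3.80 FPKM. Within each of those last sets, and between Kdm2a and Kdm5b, neighbours differed by less than the SD of the more variable gene. Kdm2a was the highest member in 8 of 9 WT libraries and in 0 of 9 HIF2 libraries, while Kdm3a was the highest in 1 WT library, replicate 6, and in all 9 HIF2 libraries.

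Kdm3a also took a larger share of the summed FPKM of the 10 genes, a measure that is independent of library scaling. The share was 13.1% to 17.2% in WT, with a median of 16.7%, and 17.5% to 31.6% in HIF2, with a median of 25.2%. All 9 HIF2 libraries exceeded the WT maximum, though replicate 4 did so narrowly at 17.5%. Across all tested genes, 0.758% had every HIF2 library above every WT library in FPKM, a different measure from this share. The summed FPKM itself was 113 to 139 in WT and 115 to 161 in HIF2, so the total overlapped. The sum of the H3K9 enzymes Kdm3a and Kdm3b was 30.9 to 37.8 FPKM in WT and 33.4 to 63.7 in HIF2, where 6 of 9 libraries exceeded the WT maximum. The sum of the H3K36 enzymes Kdm2a and Kdm2b was 22.4 to 29.4 FPKM in WT and 20.9 to 24.8 in HIF2. The KDM4 sum was 27.3 to 33.0 against 25.8 to 33.6 FPKM, and the KDM5 sum was 29.3 to 33.8 against 26.2 to 36.5 FPKM. All of these sums overlapped between the groups.

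**Figure D4:**
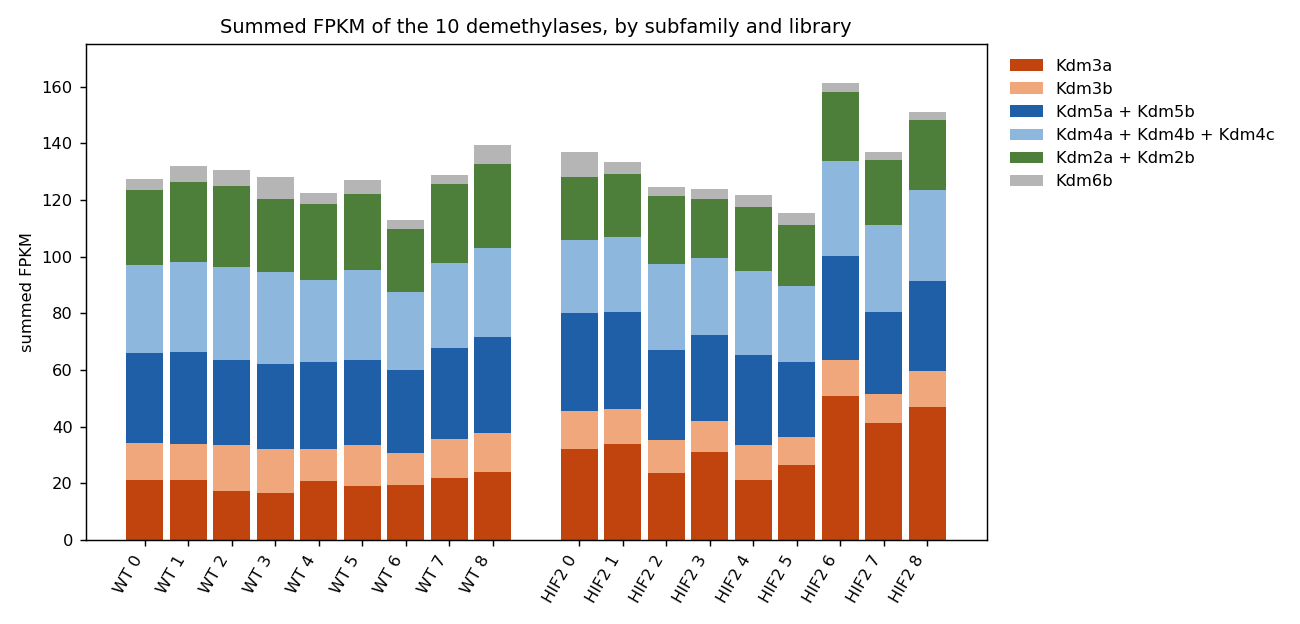
Stacked FPKM of the 10 demethylase genes by subfamily (vertical axis from 0) in each of the 18 libraries. The Kdm3a block is 16.8 to 24.0 FPKM in WT and 21.3 to 51.0 in HIF2, and the total is largest in HIF2 replicate 6 at 161 FPKM.

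The genes most like the called members were sought over the 18 libraries after subtraction of each group's mean, by Pearson r on the log2 scale. Rows of predicted genes, Rik genes, small RNAs and similar clone-type symbols were left out of this search. Libraries share depth and tissue composition, so r is a description. For Kdm3a they were Muc1 (r = 0.93), a membrane mucin gene, Ppp1r3b (r = 0.91), a glycogen-targeting subunit of protein phosphatase 1, and Tspan33 (r = 0.89), a tetraspanin gene. Within the 9 WT libraries alone r was 0.82, 0.75 and 0.51, in that order, and within HIF2 it was 0.96, 0.93 and 0.93. All 3 genes, like Kdm3a, were highest in HIF2 replicates 6 to 8. Ppp1r3b rose from 13.7 to 59.4 FPKM (difference 1.73, SE 0.35, limma adjusted p = 0.0017), and among the libraries with Y-linked RNA it did not pass (0.97, limma adjusted p = 0.0863). Muc1 rose from 6.25 to 22.1 FPKM (difference 1.32, SE 0.43, limma adjusted p = 0.0332), but its call was lost in 10 of 35 alternatives. It was 0.60 for HIF2 replicates 0 to 5 (limma adjusted p = 0.21), and 1.11 to 1.31 without WT replicate 2 or 3 or without HIF2 replicate 1, 6, 7 or 8 (limma adjusted p = 0.0532 to 0.0623). Tspan33 differed by 0.996 and missed the threshold (limma adjusted p = 0.0803), while without HIF2 replicate 2 or 4 it was 1.21 and 1.24 and passed (limma adjusted p = 0.0241 and 0.0155). For Kdm2a they were Acp2 (r = 0.79), an acid phosphatase gene, Ankhd1 (r = 0.78) and Trim56 (r = 0.77), a ubiquitin ligase gene. Of these Trim56 fell, by 0.69 on the log2 scale (SE 0.11, limma adjusted p = 0.000393), although it did not pass among the libraries without Y-linked RNA (limma adjusted p = 0.123), and Acp2 and Ankhd1 differed by -0.01 and -0.14 without passing.

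Of 20 other genes of the demethylase family, 18 were tested, and 1 rose and 2 fell (median log2 difference -0.10). Over all tested genes 11.0% were higher and 11.1% lower. Kdm1a, also known as LSD1, is a flavin-dependent enzyme and not of the JmjC type. It rose from 19.9, 22.0 and 27.1 FPKM (lowest, median, highest) in WT to 20.3, 31.5 and 53.6 in HIF2 (difference 0.50, SE 0.15, limma adjusted p = 0.0221). Like Kdm3a it stayed inside the WT range in HIF2 replicates 2 and 4, at 20.3 and 21.2 FPKM, and lay above it in the other 7. The Kdm1a call was lost for HIF2 replicates 0 to 5 (0.355, limma adjusted p = 0.0908) and by an exact rank test (adjusted p = 0.0924). It was also lost among the libraries with (0.36, limma adjusted p = 0.339) or without Y-linked RNA (0.69, limma adjusted p = 0.0608). Jarid2, a JmjC protein without demethylase activity that recruits Polycomb, fell by 0.32 on the log2 scale (SE 0.07, limma adjusted p = 0.00293). Every HIF2 library, at 8.58 to 11.4 FPKM, was below every WT library, at 11.6 to 15.2 FPKM, a pattern shared by 1.27% of all tested genes. Jmjd4, a JmjC hydroxylase gene, fell by 0.29 (SE 0.08, limma adjusted p = 0.00918), which did not pass with the smooth muscle covariate (limma adjusted p = 0.0954) or for HIF2 replicates 6 to 8 (limma adjusted p = 0.181). Jmjd1c, the KDM3 relative of Kdm3a, was 22.8 to 28.3 FPKM in WT and 22.8 to 39.9 in HIF2, and its difference of 0.19 did not pass (limma adjusted p = 0.123).

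Of 28 genes of histone lysine methyltransferases, the enzymes that write the marks, 26 were tested, and 0 rose and 3 fell by limma, against 11.0% and 11.1% of all tested genes. Of the 26 differences 22 were negative (median -0.11), against 53.1% over all tested genes, and 6 had an unadjusted p under 0.05, against 33.7%. Setdb2, related to H3K9 methyltransferases, fell by 0.49 (SE 0.10, limma adjusted p = 0.00226). Suv420h2, an H4K20 methyltransferase gene, fell by 0.47 (SE 0.14, limma adjusted p = 0.0204) and Setd8, which places the first methyl group on H4K20, by 0.26 (SE 0.08, limma adjusted p = 0.0206). With the smooth muscle covariate the calls of Suv420h2 and Setd8 were lost (limma adjusted p = 0.466 and 0.356). Suv420h2 differed by 0.03 for HIF2 replicates 6 to 8, and missed the threshold by the rank test (adjusted p = 0.0924).

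Among 17 tested genes of complexes that hold demethylases, 2 rose and 3 fell (median -0.02), against 11.0% and 11.1% of all tested genes. Skp1a, a partner of Kdm2b in its Polycomb complex, rose by 0.60 (SE 0.17, limma adjusted p = 0.0158), and did not pass for HIF2 replicates 0 to 5 alone (0.33, limma adjusted p = 0.0707). Rnf2, the ubiquitin ligase of that complex, rose by 0.29 (SE 0.09, limma adjusted p = 0.0245), which missed the threshold with each library rescaled to 1 total (limma adjusted p = 0.0946), with the smooth muscle covariate (limma adjusted p = 0.0528) and on either side of the split in smooth muscle RNA (limma adjusted p = 0.0673 and 0.0573). Hdac1, a partner of Kdm1a, fell by 0.43 (SE 0.10, limma adjusted p = 0.00477), Gse1 by 0.48 (SE 0.12, limma adjusted p = 0.00617) and Hmg20b, a subunit of the Kdm1a complex, by 0.38 (SE 0.12, limma adjusted p = 0.0344). The Hmg20b call was lost in 15 of 35 alternatives, among them leaving out any of WT replicates 2, 3, 4, 5, 7 and 8 or HIF2 replicates 0, 4, 6, 7 and 8 (-0.38 to -0.32, limma adjusted p = 0.0503 to 0.0626). Jarid2, Jmjd4, Setdb2, Setd8, Skp1a, Rnf2, Hdac1 and Gse1 kept their direction both with and without Y-linked RNA and passed in neither of these smaller sets (limma adjusted p = 0.0535 to 0.233).

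Of 12 tested TET, ALKBH and HIF hydroxylase genes, which use the same cofactors as the demethylases, 1 rose and 0 fell by limma. These shares were 11.0% and 11.1% over all tested genes. The gene that rose was Egln3, by 3.56 (SE 0.60, limma adjusted p = 0.000485). The median of the 12 was -0.14, and 6 had an unadjusted p under 0.05, against 33.7% of all tested genes. Of 4 tested HIF subunit genes 1 rose, Hif3a, by 1.72 (limma adjusted p = 0.000379), whereas Hif1a and Arnt differed by -0.30 and -0.06 without passing (limma adjusted p = 0.248 and 0.755). Without HIF2 replicate 0 Hif1a was -0.47 and passed (limma adjusted p = 0.00359). Egln3 and Hif3a, like Kdm3a, did not pass among the libraries with Y-linked RNA, which include HIF2 replicates 2 and 4 (2.72 and 1.32, limma adjusted p = 0.0867 and 0.0789).

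**Figure D5:**
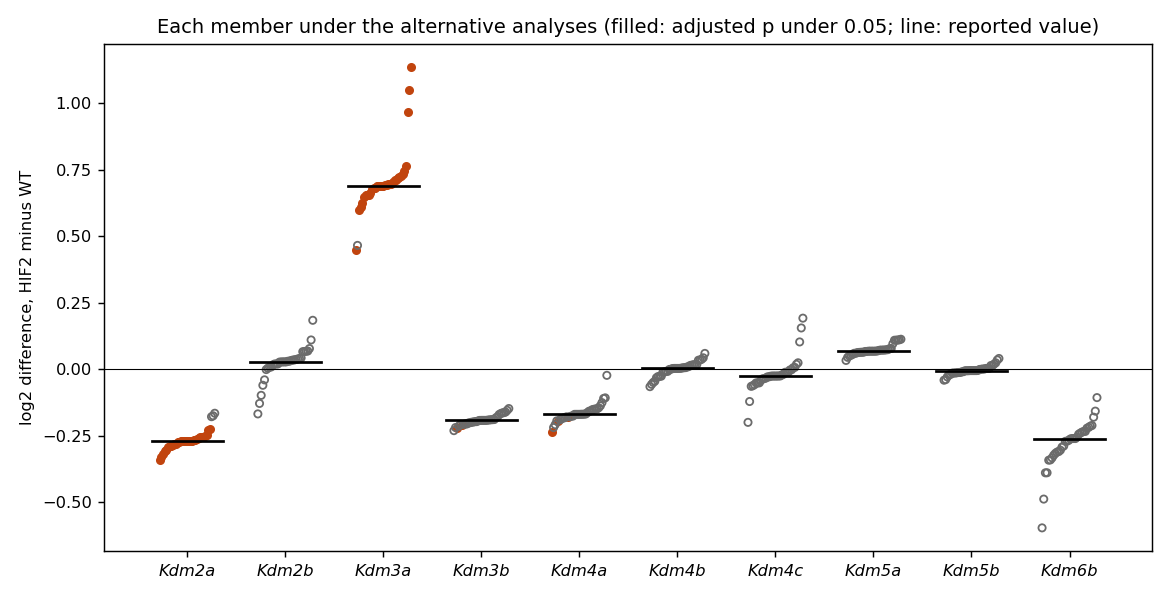
Log2 difference, HIF2 minus WT (vertical axis), of each demethylase gene under 35 alternative analyses (34 for Kdm2b and Kdm6b), with the reported value as a line and filled points where the adjusted p was under 0.05. Kdm3a stays between 0.45 and 1.13 and is filled in 34 of the 35, Kdm2a lies between -0.34 and -0.16, and Kdm2b, Kdm4b, Kdm4c and Kdm5b cross 0.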

How the data were processed

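The deposited values were FPKM, 1 column per library, all 18 used. Per the submitters' processing notes, which assign no roles, the tools were Bowtie2 2.1.0.0, Cuffdiff 2.1.1, Cufflinks, FastQC, TopHat and TopHat2 2.0.9 with the mm10 build. Annotation, strand setting and read depth, all not given in the sources used here, could shift single genes. TruSeq RNA v2, the kit per the labels' protocols, does not mark strand. Over 7109 low genes, each library's modal ratio to WT replicate 0 was 1.03 to 1.39, a rough guide to relative depth. No pair of libraries correlated above 0.931, so each was counted as its own replicate.

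Values were analysed as log2(FPKM + 1), which understates the change of low genes, with limma 3.58.1 in R 4.3.3 (trended prior, 2-sided). Genes with a mean of at least 1 FPKM were tested, 13976 in all, and p-values were adjusted over all of them at 0.05. The procedure was tested on simulated data. The members and gene lists were chosen with earlier results of these data known, as was the split of HIF2 replicates 0 to 5 from 6 to 8. Named genes were all members, up to 3 per direction and list by smallest p, the 3 genes most like each called member, and Epas1, Hif1a and Arnt. Jmjd1c and the single neutrophil markers were chosen after their values were seen. Setd1b, Emsy, Ly6g and Muc2 matched no row, and Xist was not used. Alternatives covered pseudocounts, filters, scalings, weights, an exact rank test, covariates and left-out libraries. The split by Y-linked RNA was added after the data were seen. Coordinates are 1-based. Figures were drawn with matplotlib 3.10.9.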

Additional observations from a re-analysis of the deposited data

Results flagged for a closer look

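In a group of 9, a library was singled out when its gap to the nearest other exceeded 0.493 of the group's range. Of 64 groups checked, chance singles out about 1 in 20. Kdm6b was 8.87 FPKM in HIF2 replicate 0, and the next HIF2 library was at 4.13. Hif1a was 142 FPKM in the same library, and the next was at 57.8. Gse1 was 10.5 FPKM in HIF2 replicate 4, above 8.36 in the next. Hmg20b was 28.2 FPKM in HIF2 replicate 5, above 17.7 in the next. Tspan33 was 11.2 FPKM in WT replicate 7, above 7.53 in the next.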

How the results depend on the processing

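Kdm3a kept its direction in 35 of 35 alternatives and its call in 34, the exception being the 10 libraries with Y-linked RNA, where 0 members rose. Members that fell numbered 3 with array weights (Kdm3b and Kdm4a in addition), 2 in HIF2 replicates 0 to 5, 1 to 2 with single libraries left out (Kdm3b without WT replicate 6, Kdm4a without HIF2 replicate 8), and 0 with the smooth muscle covariate, in HIF2 replicates 6 to 8 and without Y-linked RNA. Leaving out single libraries kept the calls of Kdm3a (0.61 to 0.76) and Kdm2a (-0.30 to -0.25). Over all genes, 640 were higher with a filter at 5 FPKM and 2407 with none, 995 with the smooth muscle covariate and 387 without Y-linked RNA, against 1531. Lower genes numbered 557 with and 585 without Y-linked RNA, against 1557. Higher genes were 49.6% of the calls and 33.8% with the filter at 5 FPKM, 60.8% with none, 58.9% with upper-quartile scaling, 65.9% with Y-linked RNA, and 39.8% without it. Other demethylases that rose numbered 2 with array weights or the smooth muscle covariate and 0 in HIF2 replicates 0 to 5, in either set by Y-linked RNA and in the exact rank test. Those that fell numbered 4 in HIF2 replicates 0 to 5, 1 with the filter at 5 FPKM and in HIF2 replicates 6 to 8, and 0 in either set by Y-linked RNA. Methyltransferases that rose numbered 1 with quantile normalization, the replicate block, array weights and in HIF2 replicates 0 to 5, and 0 to 1 with single libraries left out (1 without WT replicate 3, HIF2 replicate 6 or HIF2 replicate 7). Those that fell numbered 1 with and 0 without Y-linked RNA. The cause of these changes was not tested.

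Signs changed for members that did not pass. Kdm2b was -0.00107 with each library rescaled to 1 total, -0.060 with quantile normalization, -0.128 with the smooth muscle covariate, -0.098 in HIF2 replicates 6 to 8, -0.167 without Y-linked RNA and -0.040 to 0.069 with single libraries left out. Kdm4b was -0.032, -0.045 and -0.056 on rescaling, quantile normalization and array weights, -0.049 with the smooth muscle covariate, -0.00775 in HIF2 replicates 0 to 5, -0.00776 with Y-linked RNA, -0.026 in the exact rank test and -0.065 to 0.038 with single libraries left out. Kdm4c was 0.019 with upper-quartile scaling, 0.00723 with quantile normalization, 0.103 with the smooth muscle covariate, 0.155 in HIF2 replicates 6 to 8, 0.192 without Y-linked RNA and -0.064 to 0.024 with single libraries left out. Kdm5b was 0.041 and 0.035 with those scalings, 8.0e-05 with the smooth muscle covariate, 0.014 with Y-linked RNA, 0.00384 in the exact rank test and -0.039 to 0.024 with single libraries left out. Suv420h2 was 0.033 in HIF2 replicates 6 to 8, and Arnt was 0.068 in replicates 0 to 5. Acp2 was 0.032 with upper-quartile scaling, 0.128 with the smooth muscle covariate, 0.089 in HIF2 replicates 6 to 8 and -0.042 to 0.011 with single libraries left out, and Ankhd1 was 0.011 in replicates 6 to 8.

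No pairing of the samples by replicate number was detected. Deviations of same-numbered libraries correlated at -0.03 to 0.11, and 0 of 9 libraries correlated best with their own number. With the replicate block 1355 genes were higher and 1345 lower, Kdm3a and Kdm2a kept their calls (limma adjusted p = 0.00452 and 0.0273), and of the counts above the block changed that of the methyltransferases that rose.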

Other observations

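Among the other demethylase genes, those on the sex chromosomes followed the presence of Y-linked RNA in both groups. Kdm5d, the Y-linked H3K4 demethylase, was 14.1 to 21.9 FPKM in 5 WT and 10.9 to 20.8 in 5 HIF2 libraries, and at most 0.09 in the other 8. Kdm6a, the X-linked H3K27 demethylase related to Kdm6b, was 10.7 to 15.7 FPKM in the 10 libraries with Y-linked RNA. In the 8 libraries without it Kdm6a was 22.2 to 25.7 FPKM, with no overlap. Kdm5c, the X-linked counterpart of Kdm5d, was 24.1 to 30.1 FPKM in WT with Y-linked RNA and 31.5 to 43.0 without it. In HIF2 it was 17.8 to 23.4 and 27.2 to 36.8 FPKM. Within either set the HIF2 values of Kdm5c lay toward lower levels, and over all libraries the difference was -0.30 (limma adjusted p = 0.145). The labels give no sex. None of the 10 genes of the report lies on a sex chromosome.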
